A study of Homo sapiens with 12 samples.

Results

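The G1 checkpoint genes described here are the CDK inhibitors CDKN2A, CDKN2B, CDKN2C, CDKN1B and CDKN1C, the G1 cyclin CCND1 with its kinases CDK4 and CDK6, and the retinoblastoma gene RB1. They were chosen by name, as the probe sets that the array annotation assigns to one of these 9 symbols. CDKN2C had no probe set assigned to it alone and was not analysed here, so 8 of the 9 genes were measured, each by 1 probe set, among 18417 genes in all. The series profiled A172 cells, a line derived from a human glioblastoma, on 12 Affymetrix GeneChip Human Gene 1.0 ST arrays in 4 groups of 3. Clone 7 and clone 8 are stable lines that carry hHSS1 (EMC10) with a C-terminal histidine tag in pcDNA3.1, a vector with a strong viral promoter. The mock cells carry the empty pcDNA3.1 vector, and the wild-type cells were not transfected. The stable lines were kept under G-418, and every culture was harvested on day 4. Each clone is 1 line, and its 3 arrays are 3 plates, so that p-values measure the spread between cultures and not between independent transfections. Each value is an average over a culture, in which fewer cells that express a gene and less RNA per cell cannot be told apart.

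A cell leaves G1 when cyclin D1, bound to CDK4 or CDK6, starts to phosphorylate the RB protein. Phosphorylated RB releases the E2F transcription factors, which switch on the genes for DNA replication. The CDKN2 (INK4) proteins bind CDK4 and CDK6 directly, and the CDKN1 (Cip/Kip) proteins bind cyclin-CDK complexes, CDK2 complexes above all. In glioblastoma this brake is often lost, most often by deletion of the CDKN2A and CDKN2B genes on the short arm of chromosome 9. The study asked how hHSS1 slows glioma cells, and the genes of this checkpoint are where such a change could be read at the RNA level. Most of the checkpoint works through phosphorylation, binding and protein degradation, which an expression array does not measure.

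All values are log2 expression, and a difference of 1 is a doubling. Array medians over all probe sets lay between 8.603 and 8.671, and the lower quartile of the genes lay between 7.74 and 7.90. EMC10 gave 11.57 to 12.30 on the 6 clone arrays, 9.20 to 9.51 on the 3 mock arrays and 10.43 to 11.13 on the 3 wild-type arrays, so both clones stood above both controls, and mock stood below wild-type. Of the astrocyte and glioma markers, VIM and CD44 ranked at or above percentile 98.8 of the genes on every array, whereas S100B stayed at a log2 level of at most 6.67, below the lower quartile on all 12 arrays. GFAP lay between 8.57 and 8.92. NES, a neural progenitor marker, was lower in the clones than in mock by −0.73 ± 0.06 log2 (SE, adjusted p = 5.9e-05), and SOX2 by −0.32 ± 0.08 (adjusted p = 0.028, lost in 5 of 21 alternatives, up to 0.18). Mock was itself below wild-type in both, with means of 9.65 against 10.08 for NES and 8.63 against 8.90 for SOX2. Of the 3 leukocyte markers, CD3E was below the lower quartile on all 12 arrays, PTPRC on 10 and CD14 on 0 (percentiles 28.5 to 34.6). Of the 3 endothelial markers, PECAM1 and VWF were below it on all 12 and CDH5 on 0 (percentiles 29.1 to 34.8). Of the 3 epithelial markers, CDH1 was below it on all 12 and EPCAM on 7, whereas KRT18, a keratin, ranked at or above percentile 99.4 on every array.

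None of the 8 G1 checkpoint genes passed the test between the hHSS1 clones and mock. At an adjusted p under 0.05 in limma, 0 of the 8 were called, against 6.38% of all genes tested, and 1 of the 8 had an unadjusted p under 0.05, against 20.0% of all genes. Differences ran from −0.24 for CDKN1B to 0.12 for CCND1, with a median of −0.04, and 5 of the 8 were negative. The 95% confidence interval of every member lay inside a 1.5-fold change in either direction (0.585 log2), one of 2 limits that the study set for these cells. That was the case for 94.9% of all genes, so such intervals are usual in this comparison. Inside the other limit, 1.3-fold (0.379 log2), lay the intervals of 6 of the 8 and of 82.1% of all genes, and those of CCND1 and CDKN1B reached past it. With arrays weighted by their agreement with their group, which gave the lowest weights to clone 7 replicate 3 and all of clone 8, 2 of the 8 were called, both lower, CDKN1B (−0.30, adjusted p = 0.010) and RB1 (−0.16, adjusted p = 0.037), where 19.2% of all genes were called under the same weights. At the adjusted p and the 1.5-fold limit together, 0.728% of all genes were called.

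**Figure D1:**
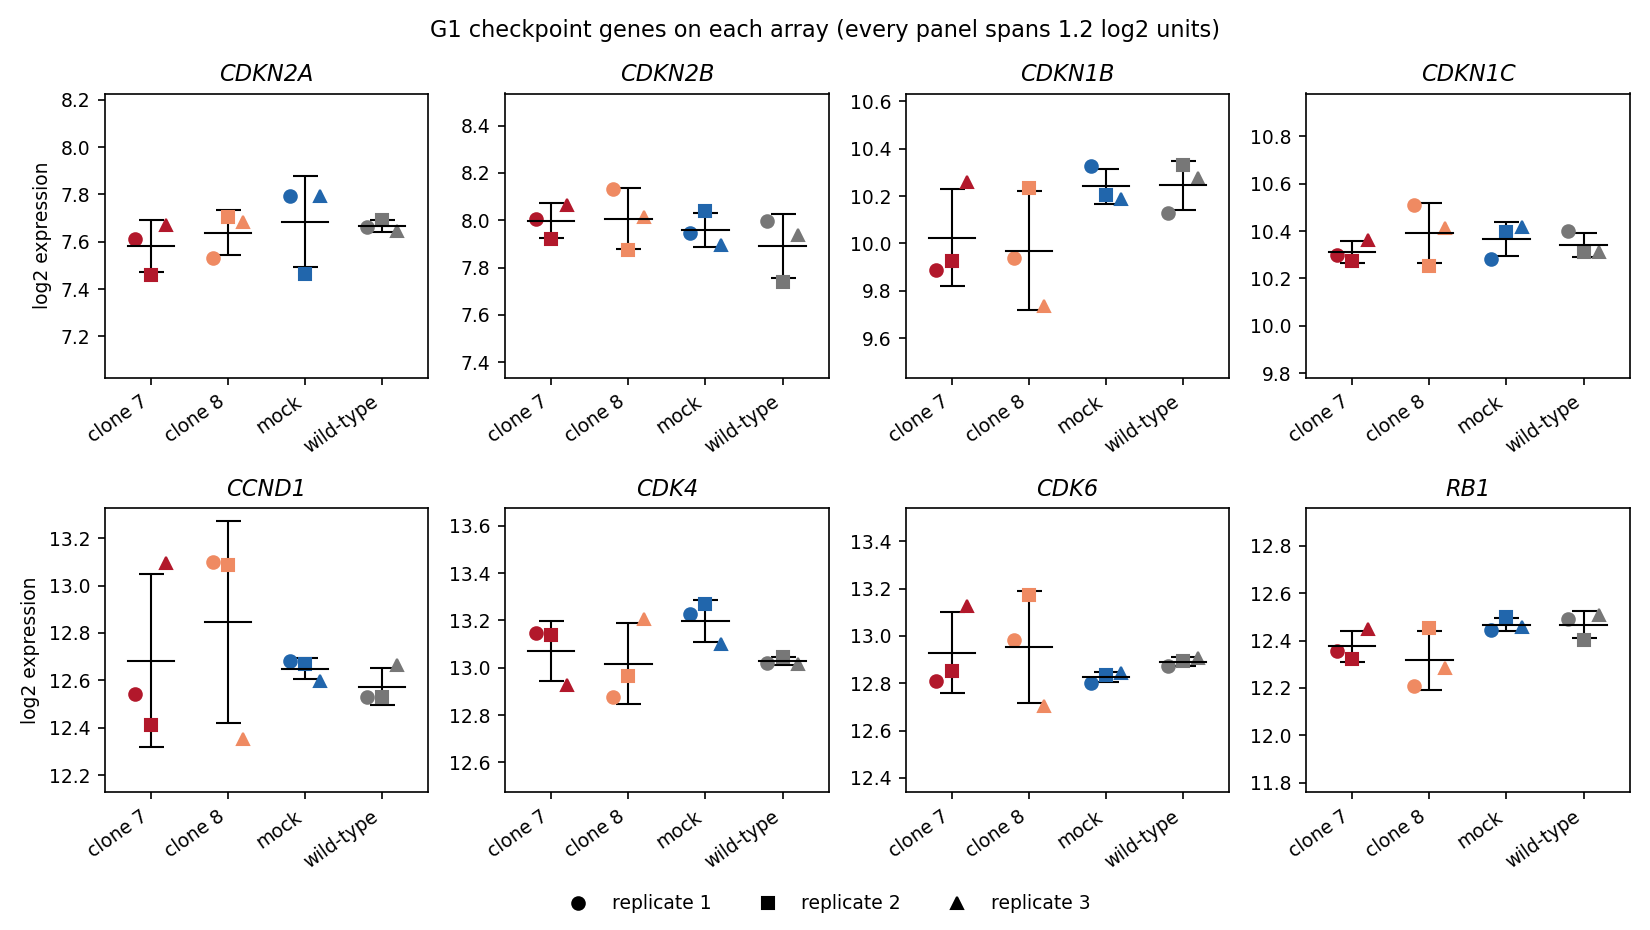
Log2 expression of the 8 measured G1 checkpoint genes on each of the 12 arrays, by group (clone 7, clone 8, mock, wild-type; n = 3 each), with bars for the mean and SD and marker shape for the replicate number. The group means lie close together in every panel, whereas the CCND1 and CDK6 points of the 2 clones are spread widely around those of the controls.

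CDKN2A encodes p16INK4A and, from another reading frame, p14ARF, which stabilizes p53. It gave 7.61, 7.46 and 7.67 in clone 7, 7.53, 7.70 and 7.68 in clone 8, 7.79, 7.46 and 7.79 in mock, and 7.66, 7.69 and 7.64 in wild-type cells. These levels were below the lower quartile of the genes on 11 of the 12 arrays, and the groups overlapped. The clones differed from mock by −0.07 ± 0.08 (SE, 95% interval −0.25 to 0.10, adjusted p = 0.68).

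CDKN2B encodes p15INK4B, an inhibitor of CDK4 and CDK6 induced by TGF-beta. Its values were 8.01, 7.92 and 8.07 in clone 7, 8.13, 7.87 and 8.02 in clone 8, 7.95, 8.04 and 7.90 in mock, and 7.99, 7.74 and 7.94 in wild-type cells. It was also dim, between percentiles 25 and 29.2 of the genes on an array, and the groups overlapped. The difference from mock was 0.04 ± 0.07 (adjusted p = 0.82).

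The neighbours of both inhibitors on the short arm of chromosome 9 were read in their order along the chromosome. MTAP, the enzyme that salvages methylthioadenosine and the next gene to CDKN2A, lay between 6.29 and 6.84, and IFNE, an interferon gene beyond it, between 4.32 and 4.71. Both were below the lower quartile on all 12 arrays. On the far side of CDKN2B, DMRTA1 lay between 9.08 and 9.32, and KLHL9, beyond IFNE, lay between 11.25 and 11.48. By rank among the genes of an array, IFNE stayed at or below percentile 0.82, DMRTA1 between 47.8 and 51.8, KLHL9 between 85.6 and 87.4, and ELAVL2, beyond DMRTA1, between 23.2 and 37.4. An array of RNA does not show whether a gene is present in the genome. Of the 7 neighbours listed, 1 was called in the clones against mock, where 6.38% of all genes were. This was ELAVL2, a neuronal RNA-binding protein, which rose by 0.60 ± 0.08 against mock (adjusted p = 0.00079). It was at 8.41 ± 0.11 in clone 7 and 8.32 ± 0.11 in clone 8, against 7.76 ± 0.07 in mock (SD, n = 3 each). Wild-type cells were at 8.02 ± 0.14, between mock and the clones.

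CDKN1B encodes p27KIP1, which holds cyclin E-CDK2 inactive in resting cells and is destroyed on entry into S phase. It gave 9.89, 9.93 and 10.26 in clone 7, 9.94, 10.23 and 9.74 in clone 8, 10.33, 10.21 and 10.19 in mock, and 10.13, 10.33 and 10.28 in wild-type cells. Of the 6 clone arrays, 4 were below every control array, and the other 2, clone 7 replicate 3 and clone 8 replicate 2, lay within the control values. The clones were at −0.24 ± 0.11 against mock (95% interval −0.48 to −0.01, unadjusted p = 0.043, adjusted p = 0.23) and at −0.25 ± 0.11 against wild-type cells (adjusted p = 0.18). It had the lowest p of the 8 genes in both comparisons, and in neither did it pass the adjustment. Without clone 8 replicate 2 the difference passed it for clone 8 against mock (−0.41, adjusted p = 0.034) and for both clones against wild-type (−0.31, adjusted p = 0.037), where 18.2% and 19% of all genes were called without that array.

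CDKN1C, the imprinted p57KIP2 gene, gave 10.30, 10.27 and 10.36 in clone 7, 10.51, 10.25 and 10.41 in clone 8, 10.28, 10.40 and 10.42 in mock, and 10.40, 10.31 and 10.31 in wild-type cells. The groups overlapped, and the difference of the clones from mock was −0.01 ± 0.06 (95% interval −0.15 to 0.12, adjusted p = 0.93). Of its listed neighbours on the short arm of chromosome 11, 4 were measured and 0 were called, where 6.38% of all genes were. Their differences ran from −0.09 for NAP1L4 to 0.07 for KCNQ1, with unadjusted p-values of 0.22 or more.

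CCND1, cyclin D1, gave 12.54, 12.41 and 13.10 in clone 7, 13.10, 13.09 and 12.35 in clone 8, 12.68, 12.67 and 12.60 in mock, and 12.53, 12.53 and 12.67 in wild-type cells. Clone 7 replicate 3 and clone 8 replicates 1 and 2 were above every control array, and the other 3 clone arrays were within or below the control values. The means were 12.68 ± 0.36 in clone 7, 12.85 ± 0.43 in clone 8, 12.65 ± 0.05 in mock and 12.57 ± 0.08 in wild-type cells (SD, n = 3 each). The difference of the clones from mock was 0.12 ± 0.17 (95% interval −0.25 to 0.48, adjusted p = 0.77). For clone 8 alone it was 0.20 ± 0.19, and its interval, −0.22 to 0.62, reached past 1.5-fold.

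CDK4 gave 13.15, 13.14 and 12.93 in clone 7, 12.88, 12.97 and 13.21 in clone 8, 13.23, 13.27 and 13.10 in mock, and 13.02, 13.05 and 13.01 in wild-type cells. It differed by −0.16 ± 0.08 between the clones and mock (adjusted p = 0.30) and by 0.17 ± 0.09 between mock and wild-type cells (adjusted p = 0.52). The 3 mock arrays were above the 3 wild-type arrays. Groups that do not overlap were seen for 28.9% of all genes in this comparison of 3 against 3. Against wild-type cells the clones were at 0.02 ± 0.08 (adjusted p = 0.92).

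CDK6, the other partner of cyclin D1, gave 12.81, 12.85 and 13.13 in clone 7, 12.98, 13.17 and 12.70 in clone 8, 12.80, 12.83 and 12.84 in mock, and 12.87, 12.89 and 12.91 in wild-type cells. Again clone 7 replicate 3 and clone 8 replicates 1 and 2 were above every control array. The 3 mock arrays were below the 3 wild-type arrays, with a difference of −0.06 ± 0.11 (adjusted p = 0.92), so that 2 of the 8 genes did not overlap between mock and wild-type cells. The mean difference of the clones from mock was 0.12 ± 0.09 (adjusted p = 0.55).

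RB1 gave 12.36, 12.32 and 12.45 in clone 7, 12.21, 12.45 and 12.29 in clone 8, 12.45, 12.50 and 12.46 in mock, and 12.49, 12.40 and 12.51 in wild-type cells. The clones overlapped mock only through clone 7 replicate 3 and clone 8 replicate 2. The clones were at −0.12 ± 0.06 against mock (95% interval −0.25 to 0.01, adjusted p = 0.30) and at −0.12 ± 0.06 against wild-type cells (adjusted p = 0.24). Without clone 8 replicate 2, RB1 passed the adjustment for clone 8 against mock (−0.22, adjusted p = 0.033) and, narrowly, for both clones against wild-type (−0.16, adjusted p = 0.0495). Without that array 18.2% of all genes were called in the first of these comparisons and 19% in the second.

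Levels of different genes rest on different probes, so they were placed only by rank among the genes of the same array. CCND1, CDK4, CDK6 and RB1 ranked at or above percentile 95 on all 12 arrays, CDKN1C between percentiles 68.3 and 75, and CDKN1B between percentiles 59.4 and 69.4. CDKN2A and CDKN2B were the dim pair among the members measured.

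The count was 0 in the other comparisons too. In clone 7 against mock 0 of the 8 genes were called, against 3.14% of all genes, and in clone 8 against mock 0 of 8, against 5.09%. Between clone 8 and clone 7 no member and no other gene passed the adjustment (0% of 18417, with 1328 genes at an unadjusted p under 0.05), and the largest member difference was 0.16 ± 0.19 for CCND1. Between mock and wild-type cells 0 of 8 were called, against 2.24%. The model shares one spread over the 4 groups, and clone cultures varied more than control cultures. With only the mock and wild-type arrays fitted, 10.6% of all genes were called and still 0 of the 8. Between both clones and wild-type cells 0 of 8 were called, against 9.95%, with 1 of 8 at an unadjusted p under 0.05.

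**Figure D2:**
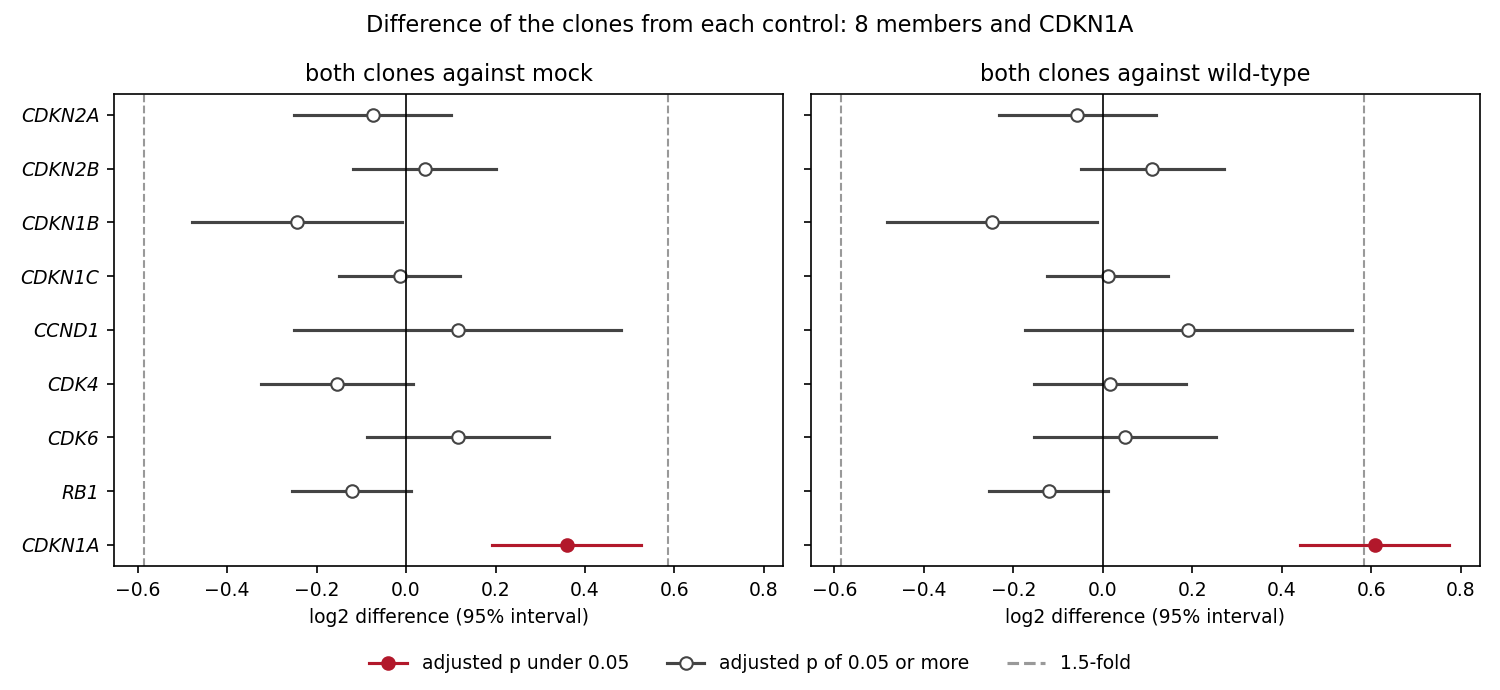
Log2 difference (points) with its 95% confidence interval (lines) for the 8 members and CDKN1A, for both clones (n = 6) against mock (left) and wild-type (right, n = 3 each), with dashed lines at a 1.5-fold change. All member intervals lie between the dashed lines, and CDKN1A alone is filled, for an adjusted p under 0.05.

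CCND1 and CDK6 varied more between clone cultures than between control cultures. The SD within a clone, pooled over both clones, was 0.40 for CCND1, against 0.06 within the controls. For CDK6 it was 0.21 in the clones and 0.02 in the controls, a ratio of 10.2, and for CDKN1B it was 0.23 in the clones and 0.09 in the controls. The median gene had an SD of 0.12 within the clones and 0.07 within the controls, with a median ratio of 1.74, so the clone cultures varied more in general. The CCND1 ratio of 6.14 was at percentile 96 of all genes and that of CDK6 at percentile 99. For CCND1 the SD within the clones was itself at percentile 97.5, whereas for CDK6 it was at percentile 84.2 and the SD within the controls at percentile 1.47. The ratios of RB1, CDK4 and CDKN1B were at percentiles 64.1 to 71.1, and that of CDKN1C, 1.54, was below the median. CDKN2A and CDKN2B, with ratios of 0.75 and 0.98, varied no more between clone cultures than between control cultures. These spreads were not tested.

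The cultures that were high for one gene were high for others. As deviations from the mean of its own group over the 12 arrays, CCND1 correlated with CDK6 at r = 0.91, with CDKN1B at r = 0.82 and with CDK4 at r = −0.86, which describes 12 arrays of which 6 carry nearly all of the variation. The first component of the within-group deviations of all genes held 54.1% of their variance, with scores of −10.6, −11.3 and 21.9 in clone 7 and 11.3, 12.6 and −24.0 in clone 8, against −0.59 to 0.91 on the 6 control arrays. It carried 96.5% of the within-group variance of CCND1, 89.2% of that of CDK6, 80.5% of that of CDK4 (in the opposite direction) and 68.8% of that of CDKN1B, but 1.4% of that of CDKN2A. The hHSS1 transcript itself varied the same way between clone cultures. EMC10 was at 12.30, 12.13 and 12.18 in clone 7 replicate 3 and clone 8 replicates 1 and 2, and at 11.57, 11.72 and 11.75 in the other 3 clone cultures. It also varied between the wild-type cultures, at 11.13, 10.43 and 10.69, where CCND1 and CDK6 did so little. What separated these cultures was not tested.

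**Figure D3:**
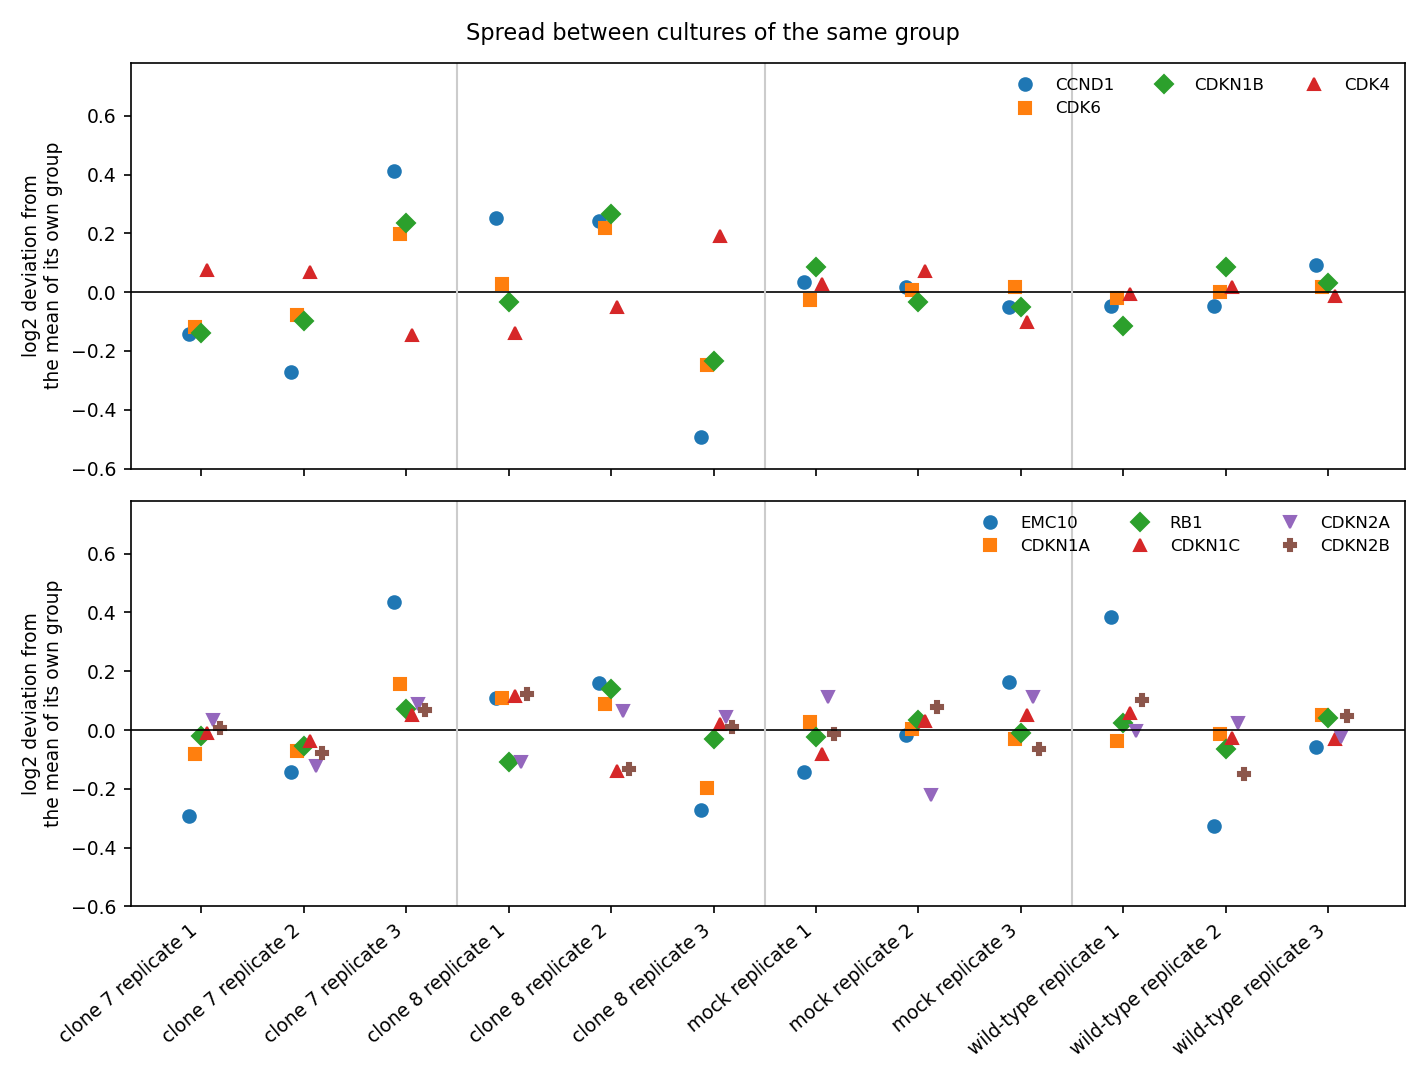
Deviation of each array from the mean of its own group (log2 units) for CCND1, CDK6, CDKN1B and CDK4 (top) and for EMC10, CDKN1A and the other 4 members (bottom), with grey lines between the groups clone 7, clone 8, mock and wild-type. In clone 7 replicate 3 and clone 8 replicate 2 CCND1, CDK6 and CDKN1B lie above 0 and CDK4 below, in clone 8 replicate 3 the reverse, and on the mock and wild-type arrays these 4 genes lie between -0.116 and 0.0916.

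Among the other genes of the pathway, the inhibitor CDKN1A rose. It encodes p21, the CDK inhibitor that p53 induces. It gave 11.55, 11.56 and 11.79 in clone 7 and 11.82, 11.80 and 11.51 in clone 8, against 11.34, 11.32 and 11.28 in mock and 11.03, 11.05 and 11.12 in wild-type cells. All 6 clone arrays were above all 6 control arrays. Groups did not overlap for 14.2% of all genes between the clones and mock and for 15.3% between the clones and wild-type cells. The difference in CDKN1A was 0.36 ± 0.08 against mock (adjusted p = 0.017) and 0.61 ± 0.08 against wild-type cells (adjusted p = 0.00045). Mock was itself at 0.25 ± 0.09 against wild-type cells (adjusted p = 0.23). That SE pools the spread of all 4 groups, whereas the SD was 0.03 in mock and 0.05 in wild-type cells (n = 3 each). Leaving out any 1 of the 3 mock arrays ended the call against mock (adjusted p up to 0.086). The other inhibitor listed, CDKN2D, was at 0.02 ± 0.06. MDM2, a p53 target that in turn degrades p53, also rose, by 0.24 ± 0.06 against mock (adjusted p = 0.031) and by 0.44 ± 0.06 against wild-type cells (adjusted p = 0.00074). The MDM2 call against mock was lost in 7 of 21 alternatives (adjusted p up to 0.14), among them each mock array left out.

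Among the genes that E2F factors switch on at the start of S phase, many fell. Of the 20 measured, 10 were called lower in the clones against mock and 0 called higher, against 3.51% of all genes called lower and 2.87% called higher. This list was chosen with earlier results of these data known. The median of the 20 was −0.27, against 0.01 for all genes. MCM6, a subunit of the replicative helicase, gave 10.59, 10.55 and 10.46 in clone 7 and 10.16, 10.39 and 10.40 in clone 8, against 10.90, 10.97 and 10.86 in mock, a difference of −0.48 ± 0.07 (adjusted p = 0.0014). TK1, thymidine kinase, gave 11.59, 11.59 and 11.74 in clone 7 and 11.62, 11.76 and 11.67 in clone 8, against 12.21, 12.13 and 12.02 in mock, a difference of −0.46 ± 0.06 (adjusted p = 0.0012). No clone array reached the mock arrays in either gene. Over all genes, the clone and mock arrays did not overlap for 14.2%.

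CCNA2, cyclin A2, which also stands among the cyclins, fell by 0.45 ± 0.12 log2 (adjusted p = 0.044), with the wide clone spread seen in CCND1, from 11.40 to 12.01 over the 6 clone arrays against 12.14 to 12.19 in mock. Its call was lost in 12 of 21 alternatives (adjusted p up to 0.18), among them quantile normalization and each mock or wild-type array left out. MCM5, MCM3 and MCM2, other helicase subunits, fell by 0.39, 0.35 and 0.31, with adjusted p-values of 0.0076, 0.0090 and 0.0047. The 19 targets with a negative difference included 9 that did not pass the adjustment. CCNE1, cyclin E1, was the only target with a positive difference, 0.31 ± 0.10 (adjusted p = 0.080). Against wild-type cells 6 of the 20 were called lower and 0 higher, where 5.32% of all genes were called lower and 4.63% higher, and 18 of the 20 differences were negative. Between mock and wild-type cells 0 of the 20 were called, where 2.24% of all genes were, and 17 of the 20 differences were positive.

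The count of E2F targets called lower moved with the arrays and the limit used. It was 3 without mock replicate 1, 3 without mock replicate 2 and 6 without mock replicate 3. It was 6 without clone 7 replicate 1, 6 without clone 7 replicate 2, 5 with the 9 clone and mock arrays fitted alone, and 3 at an unadjusted p under 0.001 with 1.3-fold. It was 13 without clone 7 replicate 3, 13 without clone 8 replicate 2 and 18 with array weights. The count over all genes, called in either direction, moved too, being 367 without mock replicate 2 and 3545 with array weights, against 1175. As a share it was 2.18%, 1.99% and 2.47% without mock replicates 1, 2 and 3, against 6.38% in the main fit. Without clone 7 replicates 1 and 2 it was 4.1% and 4.24%. With the 9 arrays alone it was 3.67%, and at the p and 1.3-fold limit 2.1%. It was 7.91% without clone 7 replicate 3, 11.5% without clone 8 replicate 2 and 19.2% with array weights. The difference of MCM3 lay between −0.38 and −0.31 over the 21 alternatives that test it. MCM2, MCM6 and TK1 passed under every alternative that tests them by an adjusted p.

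**Figure D4:**
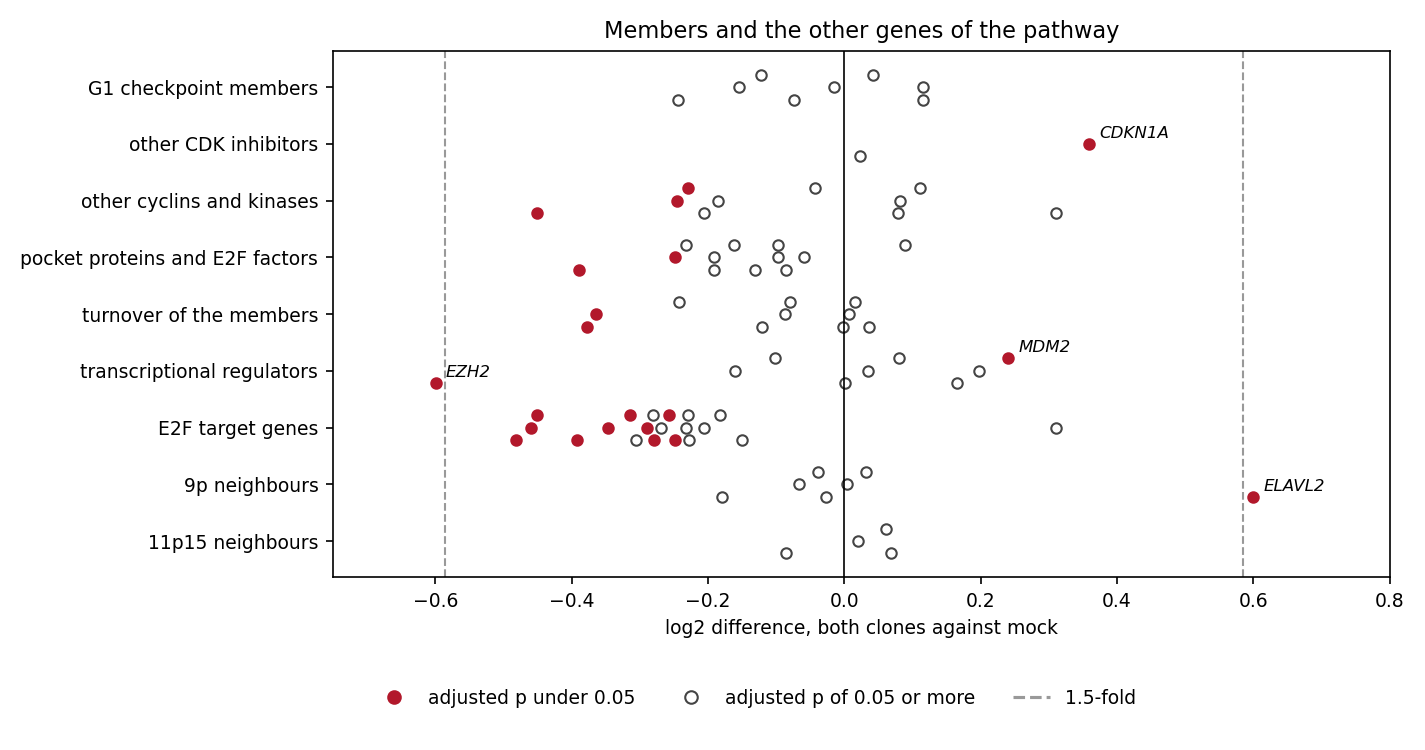
Log2 difference of both clones (n = 6) against mock (n = 3) for each measured gene of the lists, 1 point per gene, filled where the adjusted p was under 0.05, with dashed lines at a 1.5-fold change. The 8 members lie around 0 and are all open, whereas 19 of the 20 E2F target genes lie below 0 and CDKN1A and MDM2 lie above it.

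The match of E2F targets to the E2F binding sequence was read from the promoter windows that RefSeq gives for GRCh38.p14, from 250 bases before a transcript start to 50 bases after it. The sequences searched, on both strands, were TTTCCCGC, TTTGGCGC, TTTCGCGC and TTTGCCGC, which can overlap. At least 1 of them stood in the windows of 1090 of 27305 genes (3.99%), and in those of 11 of the 17 E2F targets that have a window. These genes were listed as E2F targets, so a high share follows from the choice and not from these data. Of the targets with a match, E2F1, MCM2, MCM3, MCM6, MCM7 and TYMS were called lower against mock. CDC6, CDK1, CDT1, PCNA and RBL1 held a match and were not called. Without a match, CCNA2, RRM1 and TK1 were called lower, and CCNE1, MYBL2 and RRM2 were not called. Of the 9 checkpoint genes, 7 had a window and 0 of these held a match, where the window of RB1 begins far inside the gene and the other 6 lie at the outer end of their genes. The windows of E2F1 (which fell) and MCM6 (the E2F target with the largest fall), and that of CDKN1B, the member with the lowest p, are shown with each match in capitals. They are examples and do not stand for the other genes, since TK1, CCNA2 and RRM1 fell without a match. A match is a string of letters and was not tested as a binding site.
E2F1 (chr20:33686336-33686635, minus strand): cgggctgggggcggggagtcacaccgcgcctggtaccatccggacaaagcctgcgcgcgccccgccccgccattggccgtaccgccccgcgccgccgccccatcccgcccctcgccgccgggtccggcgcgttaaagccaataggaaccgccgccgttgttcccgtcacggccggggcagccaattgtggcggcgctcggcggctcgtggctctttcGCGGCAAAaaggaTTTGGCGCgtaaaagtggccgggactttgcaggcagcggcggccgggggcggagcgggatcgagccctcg
MCM6 (chr2:135876394-135876693, minus strand): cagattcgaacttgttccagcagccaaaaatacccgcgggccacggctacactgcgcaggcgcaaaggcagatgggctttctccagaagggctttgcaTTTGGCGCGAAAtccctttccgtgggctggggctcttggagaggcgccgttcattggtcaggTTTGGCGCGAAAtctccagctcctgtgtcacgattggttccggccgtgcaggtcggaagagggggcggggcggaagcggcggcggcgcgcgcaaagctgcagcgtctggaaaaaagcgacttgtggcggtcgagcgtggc
CDKN1B (chr12:12717118-12717417, plus strand): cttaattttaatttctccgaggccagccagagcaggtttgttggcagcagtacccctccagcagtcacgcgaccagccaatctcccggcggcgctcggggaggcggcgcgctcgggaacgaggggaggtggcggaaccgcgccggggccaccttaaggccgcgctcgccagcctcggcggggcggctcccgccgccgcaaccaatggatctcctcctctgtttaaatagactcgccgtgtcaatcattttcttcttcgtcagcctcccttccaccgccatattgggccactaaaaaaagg

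In the E2F1 window 2 matches stood before the transcript start, on opposite strands, at −33 and −20 bases from it. In the MCM6 window 4 matches formed 2 overlapping pairs, each a match on one strand and another on the opposite strand, that begin at −152 and at −90 bases. The CDKN1B window held none of the 4 strings.

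Of the 12 pocket proteins and E2F factors, 2 were called lower, E2F1 and E2F8, and 0 higher, and 11 differences were negative. Over all genes 3.51% were called lower and 2.87% higher. E2F1 and RBL1 were also counted among the E2F targets. E2F1, an activator of S-phase genes, fell by 0.25 ± 0.06 log2 against mock (adjusted p = 0.024). It gave 11.04, 11.11 and 11.21 in clone 7 and 11.27, 11.30 and 11.14 in clone 8, against 11.49, 11.39 and 11.41 in mock. Wild-type cells gave 11.29, 11.36 and 11.31, below mock and overlapping clone 8. E2F8, a repressor of E2F targets, fell by 0.39 ± 0.08 (adjusted p = 0.018). The calls of E2F1 and E2F8 were lost in 7 and 4 of 21 alternatives (adjusted p up to 0.14 and 0.10), among them each mock array left out. The RB relatives RBL1 and RBL2 were at −0.23 ± 0.09 and −0.19 ± 0.09 (adjusted p = 0.18 and 0.26).

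Of the 10 other G1 cyclins and kinases, 3 were called lower and 0 higher, beside the 3.51% and 2.87% of all genes, and 6 differences were negative. These were CCNA2, CDK2, the kinase of cyclins E and A, which fell by 0.24 ± 0.06 (adjusted p = 0.033), and CCND3, cyclin D3, which fell by 0.23 ± 0.05 (adjusted p = 0.016) to 11.46 ± 0.05 in clone 7 and 11.52 ± 0.01 in clone 8, against 11.72 ± 0.06 in mock (SD, n = 3 each). The CDK2 call was lost in 7 of 21 alternatives (adjusted p up to 0.19) and the CCND3 call in 2 (up to 0.10), both without mock replicate 1 and without mock replicate 2. Against wild-type cells CCND3 was at −0.07 ± 0.05 (adjusted p = 0.42).

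Of the 10 genes that degrade p27 and the G1 cyclins, 2 were called lower and 0 higher, and 7 differences were negative. The shares over all genes were 3.51% lower and 2.87% higher. CUL1, the scaffold of the SCF ubiquitin ligase, fell by 0.38 ± 0.06 (adjusted p = 0.0023), and CKS1B, the adaptor through which SCF recognizes p27, fell by 0.36 ± 0.06 (adjusted p = 0.0038). CKS1B was at 13.05 ± 0.13 in clone 7 and 13.11 ± 0.02 in clone 8, against 13.44 ± 0.06 in mock and 13.38 ± 0.03 in wild-type cells (SD, n = 3 each). SKP2, the F-box protein of the same complex, was at −0.12 ± 0.07 (adjusted p = 0.37). Both calls held against wild-type cells too (adjusted p = 0.027 for CUL1 and 0.0069 for CKS1B).

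Of the 9 measured genes listed as regulators of CDKN2A and the D cyclins, 1 was called lower and 1, MDM2, which acts on p53, higher. Of the 9 differences, 6 were positive. The shares over all genes were 3.51% lower and 2.87% higher. EZH2, the methyltransferase of the Polycomb complex that silences CDKN2A in many cells, gave 10.55, 10.50 and 10.72 in clone 7 and 10.33, 10.57 and 10.51 in clone 8, against 11.09, 11.15 and 11.15 in mock and 10.94, 10.98 and 11.03 in wild-type cells. It fell by 0.60 ± 0.07 against mock (adjusted p = 0.00039) and was the only gene of these pathway lists past 1.5-fold in this comparison. In the same cells CDKN2A was at −0.07 ± 0.08, with levels below the lower quartile of the genes on 11 of the 12 arrays. At such dim levels this value cannot show whether CDKN2A answered to EZH2, which was not tested. MYC, an activator of CCND2 and CDK4, was at 0.20 ± 0.06 against mock (adjusted p = 0.086) and rose by 0.35 ± 0.06 against wild-type cells (adjusted p = 0.0044).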

How the data were processed

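Total RNA of 12 cultures was hybridised to GeneChip Human Gene 1.0 ST arrays, and the deposited values are log2 expression per probe set, made by the authors with Partek or dChip. The summarization and normalization were not given in the sources used here, so the background correction is unknown and no dim-probe flag exists. Of 33297 probe sets, GEO's platform annotation paired 19460 with exactly 1 symbol and 1754 with several, which were not named. For each of 18417 genes the brightest probe set, by its mean across all 12 arrays, was kept, and 4 groups of 3 arrays were fitted in 1 model with limma 3.58.1 (lmFit and eBayes, R 4.3.3). P-values were adjusted by Benjamini-Hochberg over all genes, and a gene was called at an adjusted p under 0.05. Intervals are 95% intervals from the moderated fit. The precision is limited by the number of arrays. The script was tested on simulated data.

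The members and the gene lists were chosen with earlier results of these data known. Named were all members and, from each list, up to 6 genes called in both clones against mock, by size, or otherwise the gene with the lowest p. CDKN2D, SKP2, RBL1, RBL2, MYC, CCNE1, KCNQ1, FOXO1, JUN, CDK1, the chromosome 9 neighbours and genes named against wild-type were added after their values were seen. Samples were grouped by the labels. Other normalizations, filters, variance models, a replicate block and each array left out were tried as alternatives. Replicate numbers did not pair the cultures.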

Additional observations from a re-analysis of the deposited data

How the results depend on the processing

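Alternatives were 21 fixed settings and, chosen after seeing the data, the first within-group component as a covariate, which is estimated from the same values and so gives p-values that are too small. Under quantile normalization, median centring, the dim-gene filter (which drops CDKN2A), the mean of probe sets, the trended robust variance, the fit of only the groups compared and the limit of p under 0.001 with 1.3-fold, 0 members were called in all 6 comparisons. The share of all genes called under these settings was 0% between clone 8 and clone 7. In the other comparisons it ran from 0.809% to 13.8%. Array weights called 2 members in both clones against mock and 2 in clone 7 against mock (CDKN1B and RB1), 1 in mock against wild-type (CDK4) and 1 in both clones against wild-type (CDKN1B). The covariate called 2 in both clones against mock (CDK4 and CDKN1B), 3 in clone 8 against mock (these and CCND1) and 2 in both clones against wild-type (CCND1 and CDKN1B). Under these settings the share of all genes called was larger too. With array weights it was 19.2% in both clones against mock and 29.5% in clone 7 against mock. It was 13% in mock against wild-type and 21.4% in both clones against wild-type with the same weights. With the covariate it was 17.4% in both clones against mock, 16.8% in clone 8 against mock and 22.3% in both clones against wild-type. With 1 array left out the member count ranged from 0 to 2 in clone 8 against mock and from 0 to 2 in both clones against wild-type. The 2 were CDKN1B and RB1 without clone 8 replicate 2, and the member count stayed at 0 in the other 4 comparisons. Among those, 0% of all genes were called between clone 8 and clone 7, and 0.896% to 11.5% in the rest. Without clone 8 replicate 2, 18.2% of all genes were called in clone 8 against mock and 19% in both clones against wild-type. No member was called between clone 8 and clone 7 under any alternative run, where at most 1.24% of all genes were (with the covariate).

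For both clones against mock, 1175 genes were called in all. The count was 3545 with array weights, 3207 with the covariate, 675 with only the groups compared, 387 at p under 0.001 with 1.3-fold, and 367 (without mock replicate 2) to 2111 (without clone 8 replicate 2) with 1 array left out. With the replicate block it was 754, and 0 members were called. The numbers did not pair the cultures: deviations of same-numbered arrays correlated from −0.83 to 0.45, and 2 of 12 arrays correlated best with their own number.

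Of 48 member differences under these alternatives, 46 of 1002 values changed sign, none called and none larger than 0.173. CDKN1C, both clones against mock, was 0.0233 after quantile normalization and ran from −0.0558 to 0.0199 with 1 array left out, and CDK4, both clones against wild-type, from −0.032 to 0.052. The causes were not tested. CDKN2A and CDKN2B lie near the lower quartile of the genes, where an array separates signal from background least well.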

Other observations

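The genes whose log2 level followed CCND1 most closely over the 12 arrays were chosen after their values were seen. PDZD8, AP3M1 and ITGA2 (an integrin subunit that binds collagen) followed it with r = 0.98, 0.98 and 0.97. MAP2, a neuronal microtubule protein, ran opposite to it with r = −0.98 and spanned 7.07 to 9.67 over the arrays, SEMA5A with r = −0.97 and FAXDC2 with r = −0.97. These values describe 12 arrays, in which the 6 clone cultures carry most of the variation, and no p-value is given.

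FOXO1, a transcription factor that activates CDKN1B, was at 0.17 ± 0.06 in the clones against mock (limma adjusted p = 0.15) and at 0.32 ± 0.06 against wild-type cells (adjusted p = 0.0066). JUN, an activator of CCND1, was at 0.04 ± 0.09 against mock (adjusted p = 0.88) and at −0.36 ± 0.09 against wild-type cells (adjusted p = 0.029). CDK1, the mitotic kinase, was at −0.23 ± 0.13 against mock (adjusted p = 0.39).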
